A study of Mus musculus and Homo sapiens with 41 samples.

Results

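The Zbtb genes encode one branch of the BTB zinc finger transcription factors, and Zbtb16, which encodes PLZF, is the member that was lost or gained in this study. Members were taken by symbol: Zbtb, a number and at most 1 letter, leaving out the antisense entries. This gave 40 genes of 53756 in the granulocyte-monocyte progenitor (GMP) table and 38 of 13238 in the table of 416b cells, a mouse Cd34-positive myeloid line. RNA-seq from 6 libraries was used, out of 41 samples of several assays. GMPs were Lineage-, c-Kit+, Sca-1-, Cd34+ and FcγR+ cells sorted from the bone marrow of lethally irradiated C57BL/6 Cd45-1 mice that had received bone marrow from wild type (WT) donors or from Zbtb16lu/lu donors of the strain C57BL/6 Cd45-2, with 2 libraries per genotype. The 416b cells carried a PLZF-FLAG-GFP lentivirus (PLZF-Flag) or an empty-FLAG-GFP lentivirus (Empty vector) and were sorted for GFP, with 1 library per condition. Both GMP groups therefore shared irradiation and transplantation of the host, and both 416b groups shared the transduction and the sort. Donor and host ages for these RNA libraries were not in the labels, and PLZF-Flag was a forced expression in a line that already expressed Zbtb16.

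Proteins of this family pair a BTB domain at one end with DNA-binding zinc fingers at the other. The BTB domain lets them form dimers and recruits corepressor complexes that contain histone deacetylases, and some members bridge to the ubiquitin ligase scaffold Cul3. In blood, members are known as lineage regulators: PLZF for innate-like T cells and stem cell cycling, the Zbtb7a product LRF for B, T and erythroid fate, and the Zbtb7b product ThPOK for CD4 T cells. The lu allele is luxoid, a nonsense mutation in Zbtb16.

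The members lay on 15 chromosomes in GENCODE M21 (GRCm38), most often on chromosome 4 with 6 members and chromosome 2 with 5. Zbtb16 lay on the minus strand at chr9:48654297-48836222, with 5283 bp of exons that overlapped no other annotated gene. Exons of 17 of the 40 members overlapped those of another gene, 14 of them on the opposite strand and 7 on the same strand, and whether reads were counted by strand was not given in the sources used here. Zbtb25 and Zbtb1, chosen here for their position, stood head to head on chromosome 12 with 663 bp between them.

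Promoter sequences of 35 of the 40 members, 48 promoters in all, were found in a RefSeq table of GRCm38.p6 that gives 250 bases before and 50 bases after each start. Those of 3 members are shown up to the start: Zbtb37 and Zbtb42, which gave the lowest and the highest fold change among the relatives of Zbtb16 in GMPs, and Zbtb7a, the best known relative in blood. Capitals mark GC boxes, searched as GGGCGG on both strands, where matches may overlap.
Zbtb37, chr1:161034850-161035099, minus strand: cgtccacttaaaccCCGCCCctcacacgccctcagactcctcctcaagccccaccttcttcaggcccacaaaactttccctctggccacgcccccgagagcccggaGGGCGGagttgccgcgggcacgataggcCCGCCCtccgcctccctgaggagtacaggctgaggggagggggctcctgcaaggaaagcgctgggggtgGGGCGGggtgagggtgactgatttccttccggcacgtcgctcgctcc
Zbtb42, chr12:112678590-112678839, plus strand: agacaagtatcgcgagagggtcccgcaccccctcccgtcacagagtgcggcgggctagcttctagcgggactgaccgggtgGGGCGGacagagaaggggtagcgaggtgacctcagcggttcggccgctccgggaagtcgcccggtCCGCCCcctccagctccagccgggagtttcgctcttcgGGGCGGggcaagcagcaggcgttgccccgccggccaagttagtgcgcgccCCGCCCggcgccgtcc
Zbtb7a, chr10:81136021-81136270, plus strand: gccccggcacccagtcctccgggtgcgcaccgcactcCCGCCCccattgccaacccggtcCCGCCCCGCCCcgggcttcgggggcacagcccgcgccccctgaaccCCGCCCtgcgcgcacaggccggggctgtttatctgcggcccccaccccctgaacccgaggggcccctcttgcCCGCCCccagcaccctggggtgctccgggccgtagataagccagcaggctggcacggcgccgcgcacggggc
Within the printed bases, Zbtb37 and Zbtb42 each held 4 GC boxes and Zbtb7a held 5. Of the 48 member promoters, taken over all 300 bases, 32 held a GC box, which is 66.7%, beside 35.7% of all 32851 promoters in the table. The median GC content was 64.3% for member promoters and 52.7% for all promoters, and the median ratio of observed to expected CpG was 0.808 and 0.384. The Kaiso sequence TCCTGCNA, searched on both strands and named for the Zbtb33 product, was present in 4 of the 48 member promoters, which is 8.33%, and in 4.96% of all promoters. Zbtb18 has several promoters in the table, some of them overlapping, and accounts for all of these but that of Zbtb37, which held 1 such match. By gene, 2 of 35 members held it, which is 5.71%, the same share as among all genes with a promoter. The GC box was held by 26 of the 35 members, which is 74.3%, beside 38.2% of all genes. These matches describe the letters in the window and were not tied to binding.

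Levels of different genes were compared as normalized counts per kb of annotated exons, and only within a table, because the GMP and 416b tables were normalized separately. In WT GMPs the members ranged widely in normalized counts per kb, as the plot of levels per kb shows. Zbtb12 was highest at 490 ± 42.8 per kb (SD, n = 2), followed by Zbtb22 at 467 ± 4.67 and Zbtb18 at 464 ± 68.2. Zbtb18 is a repressor known from brain development. Zbtb11, a factor with a role in neutrophil development in fish, stood at 429 ± 39.6 per kb, and Zbtb17, the Myc partner Miz-1, at 377 ± 55.5. The libraries of Zbtb12, Zbtb22 and Zbtb18 overlapped, so the order of these leading members is within their spread. At the other end, Zbtb7c was at 0.519 ± 0.158 per kb and Zbtb8b at 0.381 ± 0.328 (SD, n = 2).

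Zbtb16 was a middling member in WT GMPs. Its level per kb was 157 in WT library 1 and 133 in WT library 2, which placed it 17th and 24th of 40. The mean of 145 ± 16.5 per kb (SD, n = 2) ranked 20th, next to Zbtb45 at 149 ± 20.2 and Zbtb21 at 144 ± 2.57, neither of which it differed from beyond the spread. Zbtb7a, at 176 ± 28.8 per kb, ranked 13th. In Zbtb16lu/lu GMPs Zbtb16 was at 50.9 and 69.9 per kb, 29th and 28th of 40, and its share of the family's summed level per kb went from 2.40% and 2.001% in the WT libraries to 0.770% and 1.05%. The summed level of the other 39 members was 6378 and 6536 per kb in WT and 6565 and 6560 in Zbtb16lu/lu libraries.

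**Figure D1:**
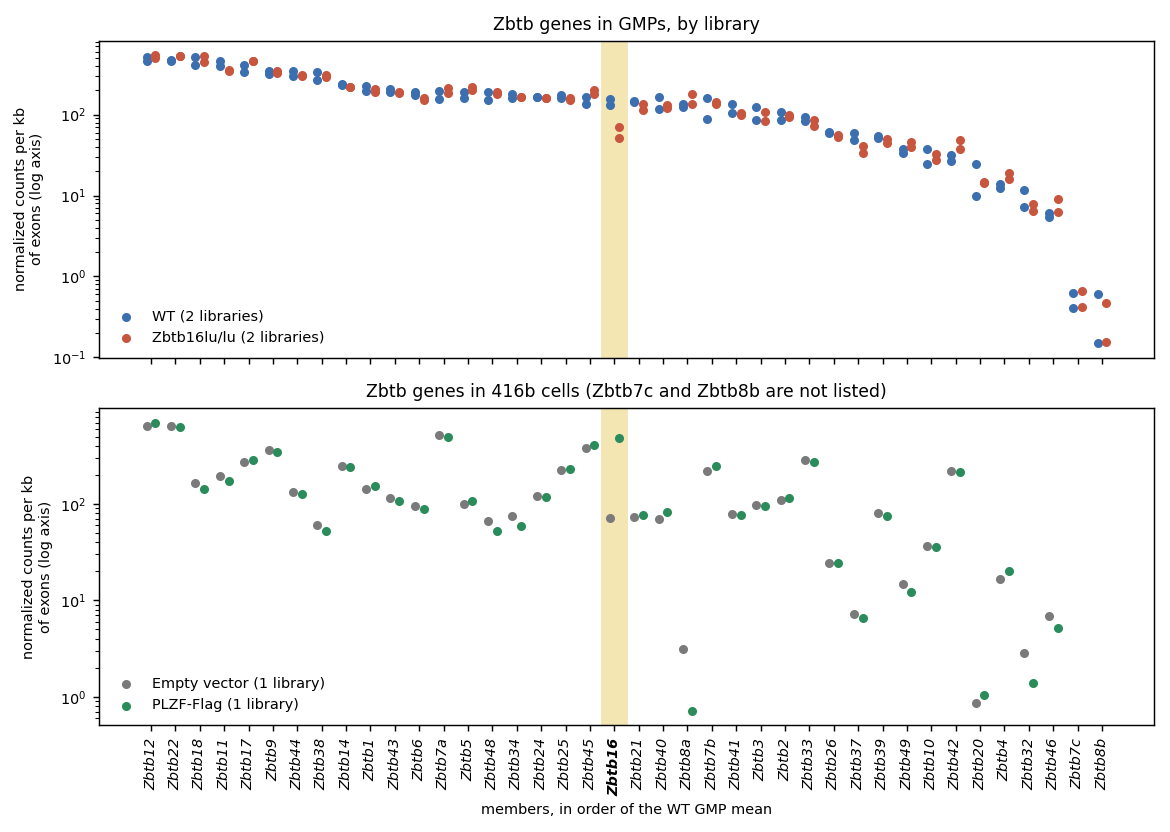
Normalized counts per kb of exons on a log axis for the 40 members, ordered by the WT GMP mean. The upper panel shows the 4 GMP libraries and the lower panel the 2 libraries of 416b cells. Zbtb16, shaded, stood 20th in WT GMPs, was lower in both Zbtb16lu/lu libraries, and stood 4th of 38 in PLZF-Flag 416b cells.

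In Empty vector 416b cells Zbtb16 was also outside the upper part of the family, at 72.4 per kb and 26th of 38. The leading members there were Zbtb22 at 652 and Zbtb12 at 648 per kb, which also led in WT GMPs, and then Zbtb7a at 515, Zbtb45 at 377 and Zbtb9 at 360. The Zbtb9 level is uncertain, since 2938 of its 3482 exon bases also belong to another gene on the same strand. In PLZF-Flag cells Zbtb16 reached 481 per kb, 4th behind Zbtb12 (698), Zbtb22 (629) and Zbtb7a (501). Its share of the family sum went from 1.21% to 7.55%, while the sum of the other 37 members was 5920 per kb with Empty vector and 5889 with PLZF-Flag. Reads from the transgene and from the endogenous gene cannot be told apart, and the extent of the transgene was not given in the sources used here, so its level per kb is approximate.

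The order of the family differed between GMPs and 416b cells more than within either. Across the 40 members Spearman's rho was 0.955 between the 2 WT GMP libraries, and across the 37 relatives it was 0.993 between the 2 libraries of 416b cells. Across the 38 members in both tables it was 0.65 between WT GMPs and Empty vector 416b cells. The same genes underlie every point, and the 2 cell types also differed in library kit and in normalization. Ranks over these 38 members differed by more than 10 places for 7 of them, which were picked by that value. Zbtb33, which encodes the methyl-CpG reader Kaiso, was 28th in WT GMPs and 6th in 416b cells. Its relative Zbtb38 went the other way, from 8th to 29th. Zbtb42, a close relative of Zbtb18 known from muscle, was 34th and 11th, Zbtb45 was 19th and 4th, and Zbtb7b was 24th and 10th. Zbtb48, the telomere-binding TZAP, was 15th and 28th, and Zbtb8a was 23rd and 36th. No test was made of these differences, since the 2 tables have no common scale.

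The loss of PLZF in GMPs was compared first for Zbtb16 itself. Zbtb16 had 828 and 705 normalized counts in the WT libraries, against 269 and 369 in the Zbtb16lu/lu libraries. Both mutant libraries were therefore below both WT libraries, at 41.6% of the WT mean. The log2 fold change was -1.28 (SE 0.20, 95% interval -1.73 to -0.82, n = 2 and 2), with a limma p of 1.65e-04 and a Benjamini-Hochberg adjusted p of 0.299 over the 20531 genes tested. The change thus missed the threshold of 0.08. Nothing in the labels says that libraries of a genotype came from separate animals, so p-values measure the spread between these libraries only. The libraries numbered 2 of both genotypes share a number in their column headers. It is read here as a date, though the labels do not say what it marks. Between these 2 libraries the log2 difference was -0.93, while between the other 2 libraries it was -1.62. By leaving out WT library 1, WT library 2 or Zbtb16lu/lu library 2 the limma adjusted p became 1.48e-08, 3.76e-13 and 0.0443, and without Zbtb16lu/lu library 1 it was 0.872, with log2 fold changes between -1.50 and -1.05.

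Among its relatives, 37 had at least 10 normalized counts in at least 2 libraries and were tested. Zbtb7c, at 1.93 to 3.08 normalized counts, and Zbtb8b, at 0.964 to 3.98, were not. With Zbtb16, 38 of the 40 members were tested, and 0 passed a limma adjusted p of 0.08, as did 0% of all genes tested. At an unadjusted p under 0.05, 2 of 38 members were lower in Zbtb16lu/lu GMPs, Zbtb16 and Zbtb37, beside 4.37% of all genes tested. Without the mutated gene Zbtb16, 1 of 37 was lower, which is 2.70%. None was higher at that level, beside 5.50% of all genes. In 9 members both Zbtb16lu/lu libraries were above both WT libraries and in 10 they were below, which are 23.7% and 26.3% of the members beside 21.7% and 22.1% of all genes tested. These shares of the family lie near those of the whole table. The median log2 fold change was -0.05 over the 38 members, -0.04 over the 37 relatives and -0.01 over all genes tested, with 15 members above 0 and 23 below. These counts depend on the WT libraries. Without WT library 1, 6 members passed the adjusted threshold (Zbtb5, Zbtb11, Zbtb16, Zbtb20, Zbtb37 and Zbtb40), as did 13.8% of all genes. Without WT library 2, 8 members passed (Zbtb7a, Zbtb7b, Zbtb16, Zbtb17, Zbtb20, Zbtb37, Zbtb41 and Zbtb45), as did 23.0% of all genes. Zbtb16, Zbtb20 and Zbtb37 were in both sets, and Zbtb20 had opposite signs in them. Without Zbtb16lu/lu library 1 or 2, 0 and 1 members passed, the latter Zbtb16, as did 1 of 19977 and 48 of 19907 genes. A genotype left with a single library was assumed to vary like the other one.

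**Figure D2:**
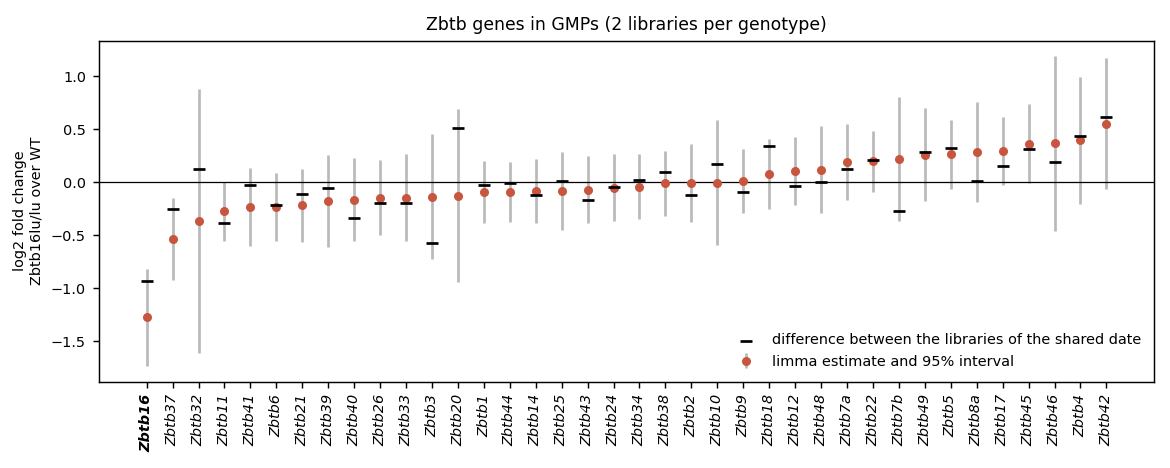
Log2 fold change of the 38 tested members in GMPs, Zbtb16lu/lu over WT, with 2 libraries per genotype. Points and grey bars give the limma estimate and its 95% interval. Black dashes give the difference between the 2 libraries that share a header number, read here as a date. Zbtb16 (-1.28) lies apart from its relatives, which span -0.54 (Zbtb37) to 0.55 (Zbtb42).

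The relatives spanned log2 fold changes from -0.54 to 0.55. The 95% intervals of 34 of the 37 lay within a 2-fold change in either direction, and the exceptions were Zbtb32, Zbtb46 and Zbtb42. For 21 of the 37 relatives the difference between the 2 WT libraries was larger than the fold change between genotypes. The median absolute log2 difference over the 38 members was 0.22 between the WT libraries, 0.10 between the Zbtb16lu/lu libraries and 0.17 between genotypes. Over all genes tested these medians were 0.28, 0.15 and 0.21. Both pairs of libraries, those that share a date and the other 2, moved the same way in 23 of the 38 members, and in 57.5% of all genes.

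Zbtb37, a member with no well established role in blood, had the lowest fold change of the relatives. It had 1125 and 913 normalized counts in WT and 637 and 766 in Zbtb16lu/lu GMPs, so that the groups did not overlap. Its log2 fold change was -0.54 (SE 0.17, limma adjusted p = 0.428), and it was -0.25 between the libraries that share a date. The exons of Zbtb37 overlap by 2942 bp those of Serpinc1, the antithrombin gene, on the opposite strand. Serpinc1 was counted at 204, 174, 123 and 161 in the same order of libraries, which is 18.2% to 21.1% of the Zbtb37 count in each, and its log2 fold change was -0.42 (limma adjusted p = 0.59). Whether these reads come from 1 of the genes or from both cannot be told apart. Without WT library 1 or 2 the adjusted p of Zbtb37 was 0.0661 and 5.64e-05, and without Zbtb16lu/lu library 1 or 2 its unadjusted p was 0.142 and 0.0224 and it was not called.

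The next lowest values belonged to members that passed neither level in this fit. With equal library totals Zbtb11 was also at an unadjusted p under 0.05. Zbtb11 had 2983 and 3400 normalized counts in WT and 2671 and 2601 in Zbtb16lu/lu GMPs, a log2 fold change of -0.27 (SE 0.12, limma adjusted p = 0.51). Without WT library 1 it was -0.37, with a limma adjusted p of 0.0157, and without WT library 2 it was -0.18, with 0.273. Zbtb41, for which no role in blood is established, gave -0.24 (SE 0.16, limma adjusted p = 0.627), with -0.06 without WT library 1 and -0.42 without WT library 2 (limma adjusted p = 0.0191 for the latter). Zbtb32, whose product represses cytokine genes in T cells, was near the floor, with 28.0 and 16.9 normalized counts in WT and 15.1 and 18.5 in Zbtb16lu/lu, and its -0.36 carried an SE of 0.55. Exons of Zbtb11 also overlap those of 3 other genes.

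Above 0, the largest values belonged to lowly expressed members. Zbtb42 had 93.6 and 109 normalized counts in WT and 131 and 169 in Zbtb16lu/lu GMPs, without overlap, and gave 0.55 (SE 0.27, limma adjusted p = 0.534). Zbtb4, a Kaiso-like methyl-CpG binder, had 100 and 113 against 128 and 154, and gave 0.40 (SE 0.26, limma adjusted p = 0.619). Zbtb46, a marker of classical dendritic cells, had 52.1 and 46.7 against 76.3 and 53.5, and gave 0.37 (SE 0.36, limma adjusted p = 0.739). Zbtb45, at a higher level, had 567 and 687 against 757 and 854, and gave 0.36 (SE 0.16, limma adjusted p = 0.51). None of these passed the test. Without WT library 1 or 2 Zbtb45 was at 0.23 and 0.50, with limma adjusted p of 0.361 and 0.00763.

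The members known as blood lineage regulators were described together. Of 8 such genes (Zbtb16, Zbtb7a, Zbtb7b, Zbtb1, Zbtb17, Zbtb20, Zbtb32 and Zbtb46), only Zbtb16, the mutated gene itself, was at an unadjusted p under 0.05. This is 12.5% lower and 0% higher, beside 4.37% and 5.50% of all genes tested. Of the 8, 4 had a positive and 4 a negative fold change, and the median was 0.05. Zbtb7a had 1062 and 1339 normalized counts in WT and 1265 and 1464 in Zbtb16lu/lu GMPs. The groups overlapped, and the log2 fold change was 0.19 (SE 0.16, 95% interval -0.17 to 0.55, limma adjusted p = 0.692). It was 0.13 between the libraries that share a date. Without WT library 2 the value for Zbtb7a was 0.36 with an adjusted p of 0.0328, and without WT library 1 it was 0.02 with an adjusted p of 0.939. Zbtb17, which encodes Miz-1, had 1309 and 1613 in WT against 1771 and 1795 in Zbtb16lu/lu, both above WT, at 0.30 (SE 0.14, limma adjusted p = 0.53). It was 0.14 without WT library 1 (limma adjusted p = 0.507) and 0.45 without WT library 2 (limma adjusted p = 0.00334).

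Among the tested members the WT libraries differed most from each other in Zbtb20 and Zbtb7b. Zbtb7b had 493 and 902 normalized counts in the WT libraries and 805 and 749 in the Zbtb16lu/lu libraries, with a log2 fold change of 0.22 (SE 0.26). It was -0.22 without WT library 1 (limma adjusted p = 0.381) and 0.66 without WT library 2 (limma adjusted p = 3.95e-04). Zbtb20, a factor of plasma cells and innate signalling, had 764 and 304 in WT against 450 and 434 in Zbtb16lu/lu. Its fold change of -0.13 (SE 0.36, limma adjusted p = 0.923) had no stable direction: it was 0.54 without WT library 1 and -0.79 without WT library 2. Zbtb1, needed for lymphoid development, had 2793 and 2396 in WT against 2496 and 2353 in Zbtb16lu/lu, at -0.09 (SE 0.13). Its head-to-head neighbour Zbtb25 gave -0.08 (SE 0.16).

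**Figure D3:**
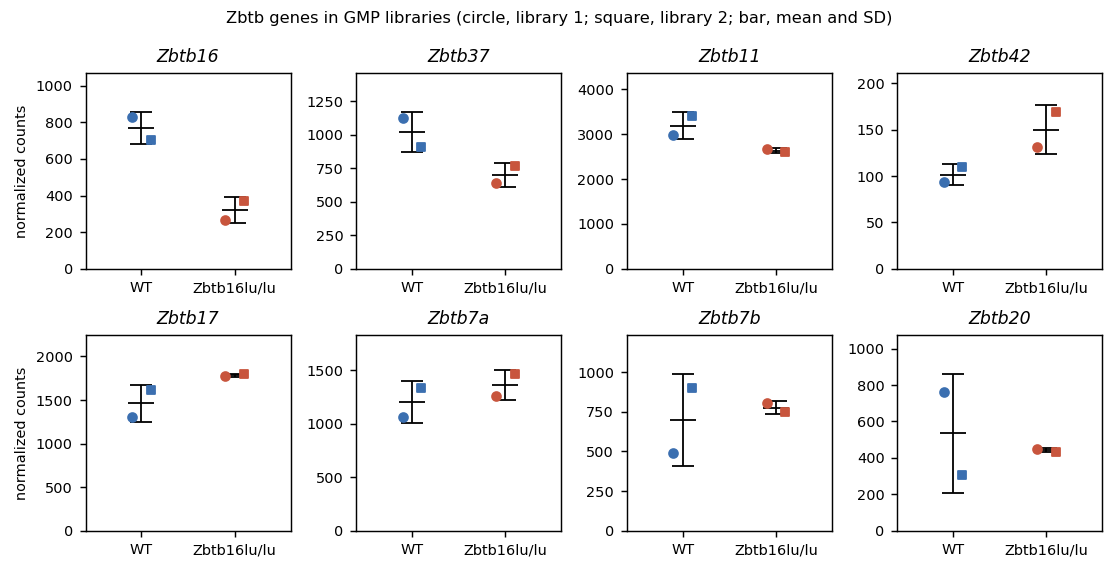
Normalized counts of 8 members in the 4 GMP libraries, with circles for library 1, squares for library 2, and bars for the mean and SD of 2 libraries. Zbtb16, Zbtb37, Zbtb11, Zbtb42 and Zbtb17 do not overlap between genotypes. Zbtb7a, Zbtb7b and Zbtb20 do, the last with 764 and 304 in the WT libraries.

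Among the 4 members that bind methylated CpG or act in DNA methylation, none was at an unadjusted p under 0.05. Of all genes tested, 5.50% were higher and 4.37% lower at that p, so 0 of 4 is near that share. The median log2 fold change of the 4 was -0.03. Zbtb38 was the most counted of them, with 3919 and 3176 normalized counts in WT and 3618 and 3393 in Zbtb16lu/lu GMPs, at -0.01 (SE 0.13). Zbtb33 gave -0.15 (SE 0.18), and its groups overlapped. Zbtb24, the ICF syndrome gene needed for DNA methylation of repeats, gave -0.05 (SE 0.14). Of the members highest per kb, Zbtb22 had 1258 and 1240 in WT against 1427 and 1437 in Zbtb16lu/lu, at 0.20 (SE 0.13, limma adjusted p = 0.609). The groups of Zbtb12, Zbtb18 and Zbtb9 overlapped, with log2 fold changes of 0.10 (SE 0.14), 0.08 (SE 0.14) and 0.01 (SE 0.13).

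The gain of PLZF in 416b cells was read from 1 library per condition, so no test was possible and intervals cover counting error only. Zbtb16 went from 632 reads with Empty vector to 1538 reads with PLZF-Flag. Reads were inferred from the normalized values and summed to 54530098 and 19995828 over the listed genes, which are not full library depths. As normalized counts Zbtb16 was at 382 and 2541, a 6.63-fold difference with the pseudocount of 1 added to both. The log2 ratio was 2.73 (95% exact binomial interval 2.60 to 2.87). Zbtb32, with 11 and 2 reads, and Zbtb8a, with 12 and 1, had a mean under 10 normalized counts and were left out, and Zbtb7c and Zbtb8b are not listed. Of the 36 members left, Zbtb16 was the only one at least 1.5-fold higher with an interval above 0, which is 2.78% of them beside 0.879% of all 11836 genes past the same filter. Its rise was set by the design, and 0 of its 35 relatives were called higher. No member was at least 1.5-fold lower with an interval below 0, beside 1.74% of those genes.

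The 35 relatives of Zbtb16 spanned log2 ratios from -0.41 to 0.28. Intervals of 30 of them lay within 1.5-fold in either direction, and those of Zbtb20, Zbtb4, Zbtb49, Zbtb48 and Zbtb46 did not. The median log2 ratio was -0.03 over the 36 members and -0.00014 over all genes past the filter, with 14 members above 0 and 22 below. Intervals lay above 0 for 5 members, Zbtb16, Zbtb40, Zbtb7b, Zbtb45 and Zbtb1, and below 0 for another 5, Zbtb48, Zbtb34, Zbtb18, Zbtb11 and Zbtb38. Each of these is 13.9% of the members, beside 16.1% and 15.9% of all genes, and those outside the naming rule are named for their intervals.

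**Figure D4:**
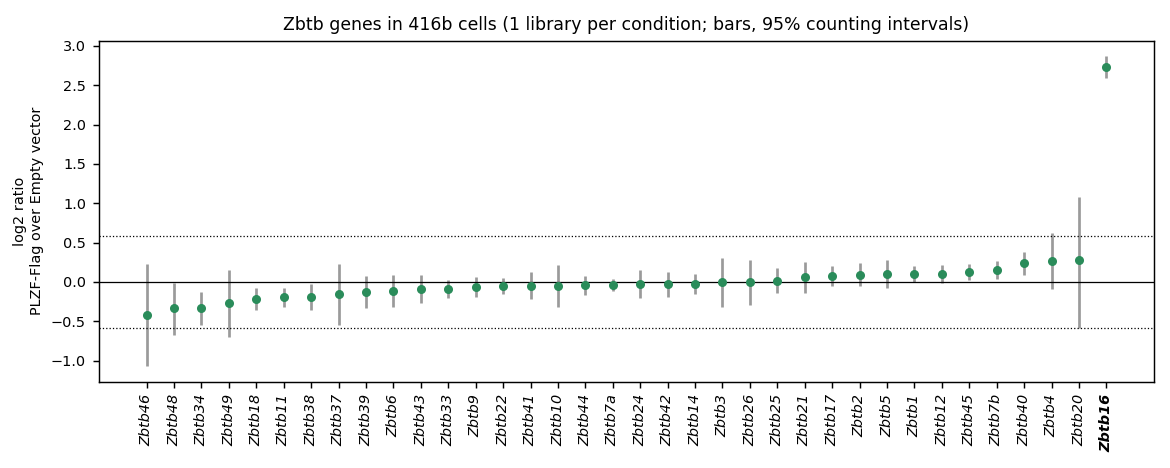
Log2 ratio of normalized counts, PLZF-Flag over Empty vector, for the 36 members past the filter in 416b cells, with 1 library per condition. Bars give 95% exact binomial counting intervals and dotted lines a 1.5-fold difference. Zbtb16 stands at 2.73, and its relatives between -0.41 and 0.28.

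Zbtb7a was the relative measured with the most reads. It had 5790 reads with Empty vector and 2064 with PLZF-Flag, and its log2 ratio was -0.04 (interval -0.11 to 0.03). Zbtb7b had 2052 and 836 reads, at 0.15 (0.04 to 0.27). Zbtb1 had 2890 and 1137, at 0.10 (0.003 to 0.20). The interval of Zbtb7a includes 0, and those of Zbtb7b and Zbtb1 lie just above it. Zbtb17 gave 0.08 (-0.05 to 0.20). Zbtb46, with 97 and 27 reads, gave -0.41 (-1.07 to 0.23). Zbtb20, with 43 and 19 reads, gave 0.28 (-0.59 to 1.08). Zbtb46 and Zbtb20 were the relatives with the fewest reads among those past the filter.

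Of the 4 methyl-CpG members, none was called at 1.5-fold in 416b cells, though the interval of Zbtb4 was not within 1.5-fold. The interval of 1 lay below 0 and that of none above, beside 15.9% and 16.1% of all genes. Zbtb33 had 2442 and 839 reads, at -0.09 (interval -0.21 to 0.02). Zbtb38 had 1170 and 376 reads, at -0.19 (-0.36 to -0.02), the only one of the 4 with an interval off 0. Zbtb24 gave -0.03 (-0.20 to 0.15). Zbtb4 gave 0.27 (-0.09 to 0.62) from 222 and 98 reads.

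The other members with an interval off 0 all differed by less than 1.5-fold. Zbtb34 had 811 and 236 reads, at -0.33 (-0.55 to -0.12). Zbtb48 had 352 and 102 reads, at -0.34 (-0.67 to -0.02). Zbtb40, at 1243 and 536 reads, was the highest of them at 0.24 (0.09 to 0.38). Zbtb18 and Zbtb11, both among the highest per kb in GMPs, were below 0. Zbtb18 gave -0.22 (-0.36 to -0.07), and Zbtb11 gave -0.19 (-0.31 to -0.08). Zbtb45 gave 0.13 (0.02 to 0.23). Zbtb37, the relative with the lowest value in GMPs, had 227 and 75 reads at -0.15 (-0.55 to 0.23), an interval that includes 0. Zbtb42, the highest in GMPs, had 1257 and 452 reads at -0.03 (-0.18 to 0.13).

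Gain and loss were then set side by side, since these comparisons share no library. Of the 36 members measured in both, 16 had opposite signs in 416b cells and GMPs, which is 44.4%, beside 47.6% of all 11215 genes in both tables. Without Zbtb16 it was 15 of 35, which is 42.9%. Zbtb16 itself had a log2 ratio of 2.73 with gain and a log2 fold change of -1.28 with the lu allele. Of the relatives, 14 were below 0 in both comparisons, 6 were above 0 in both, 8 were above 0 in GMPs only and 7 above 0 in 416b cells only. Across these 35 relatives Pearson's r between the log2 values was 0.07 and Spearman's rho 0.12, and across all 11215 genes they were -0.04 and 0.03. Genes are not independent replicates.

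**Figure D5:**
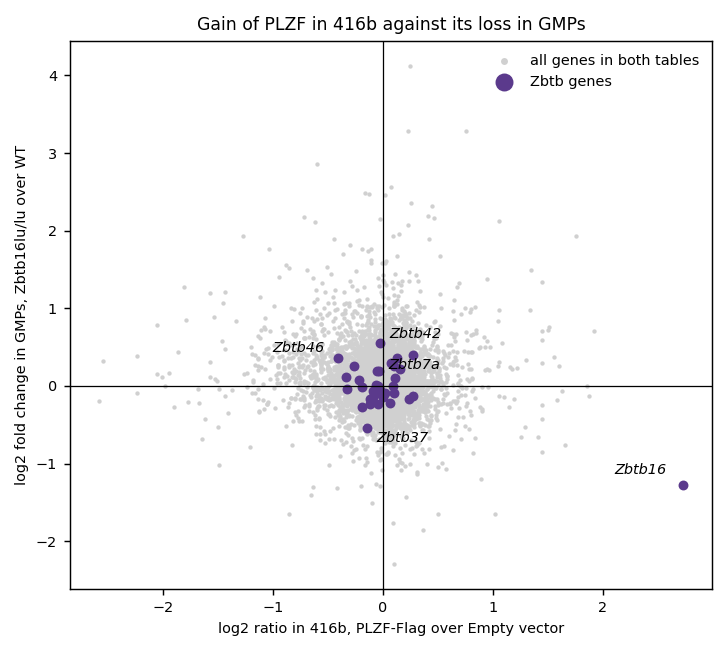
Log2 ratio in 416b cells (horizontal axis) against log2 fold change in GMPs (vertical axis) for the 36 Zbtb genes measured in both and, in grey, all 11215 genes in both tables. Zbtb16 lies alone at 2.73 and -1.28. Its relatives lie around 0, within -0.41 to 0.28 and -0.54 to 0.55.

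BTB zinc finger genes that carry other symbols were taken as a comparison list: Bcl6, Bcl6b, Hic1, Hic2, Patz1, Mynn, Gzf1 and Zfp131. In GMPs 7 of these 8 were tested, 0 passed an adjusted p of 0.08 and 1 was at an unadjusted p under 0.05 and lower, beside 4.37% of all genes tested. This was Zfp131, which had 3102 and 3055 normalized counts in WT and 2587 and 2502 in Zbtb16lu/lu (-0.27, SE 0.11, limma adjusted p = 0.491). The median log2 fold change was 0.02. Hic1, a gene of tumour suppression, had the highest value of the list, 1.87 (SE 0.93, limma adjusted p = 0.536), from 0.964 and 6.96 normalized counts in WT against 16.1 and 11.3, without overlap. In 416b cells 6 of the 8 passed the filter and none reached 1.5-fold, beside 0.879% of all genes called higher and 1.74% called lower. Bcl6, the germinal centre repressor, was at -0.22 there (interval -0.39 to -0.06), and Gzf1 was at 0.16 (0.03 to 0.28). The intervals of the other 4 include 0, while 16.1% of all genes had an interval above 0 and 15.9% below.

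Partners of BTB domains, 15 genes for corepressor, polycomb and Cul3 ligase subunits, were all tested in GMPs. None was at an unadjusted p under 0.05, beside 5.50% of all genes tested that were higher and 4.37% that were lower at that p. Of the 15, 4 had a positive and 11 a negative fold change, with a median of -0.09, beside 10090 and 10441 of all genes tested and a median of -0.01. In 7 of the 15 both mutant libraries were below both WT libraries, which is 46.7% beside 22.1% of all genes tested, and in 1 they were above, which is 6.67% beside 21.7%. The lowest p was that of Hdac2, a histone deacetylase, at -0.28 (SE 0.12, limma adjusted p = 0.506). Cul3 gave -0.26 (SE 0.13) and the polycomb gene Bmi1 -0.29 (SE 0.14). In 416b cells all 15 passed the filter and none reached 1.5-fold, beside 0.879% of all genes past it called higher and 1.74% called lower. Intervals lay above 0 for 5 and below 0 for 3 of the 15, beside 16.1% and 15.9% of all genes past the filter. Bmi1 was the lowest at -0.19 (interval -0.27 to -0.12).

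Total normalized counts of the GMP libraries were 38562940 to 40130730. GMP markers were high in every GMP library, with Mpo at 477326 to 552003 normalized counts, and 1 of the 8 was higher in Zbtb16lu/lu GMPs at an unadjusted p under 0.05, beside 5.50% of all genes tested. This was Elane, with 36604 and 37949 in WT against 47604 and 48674. Of the 8, 7 had a positive fold change, and 3 were above WT in both mutant libraries, which is 37.5% beside 21.7% of all genes tested. In 416b cells Cd34 and Kit were high but Mpo had 20 and 2 reads and Elane is not listed. Markers of mature neutrophils (5 of 6) and monocytes (4 of 4) were higher in Zbtb16lu/lu GMPs at an unadjusted p under 0.05, with 0 past an adjusted p of 0.08. These are 83.3% and 100% of the markers tested, beside the same 5.50% of all genes. Their summed normalized counts were 4208 and 8854 in WT against 12845 and 6586 for neutrophils, and 85656 and 72237 against 103234 and 97412 for monocytes. Most of the neutrophil sum was S100a8, whose groups overlapped and which was the marker not called. The other 5 summed to 241 and 756 in WT against 3626 and 1387, without overlap. T and NK cell markers other than Nkg7 were at 0 to 19.5 normalized counts, with Cd3e at 0 in 2 libraries, and 1 of the 2 tested was higher at that p. This was Cd3d, with 3.86 and 2.98 in WT against 12.0 and 19.5 in Zbtb16lu/lu. Cd4, too low to be tested, had 4.82 and 3.98 against 9.03 and 9.25. The groups of the other T and NK markers overlapped. Cd3g had 4.82 and 2.98 against 0 and 3.08, and Cd3e had 0 and 2.98 against 0 and 1.03. Cd8a had 0.964 and 2.98 against 2.01 and 5.14, and Gzma 0 and 0.994 against 0 and 0. Nkg7 had 11201 and 11712 against 11056 and 11617. B cell markers were at 0 to 9.03. Ly6a stood at 20.3 to 68.6. Dendritic cell markers had 1 of 4 tested higher (H2-Ab1), erythroid markers had 0 of 5, and mast cell and basophil markers had 1 of 3 lower (Ms4a2) at that p. Of all genes tested, 5.50% were higher and 4.37% lower. The part of these other cells in the Zbtb values was not tested, and in bulk samples fewer cells of a type and less RNA per cell cannot be told apart.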

How the data were processed

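The values used were deposited by the authors as normalized counts per gene, treated here as a signal: reads were mapped to mm10 with Subread, counted per gene with featureCounts 1.5.0 (per the labels) and divided by DESeq2 size factors. Fold changes and p-values made by the authors stand in the GMP file too and were not used. The study states 3 RNA extractions for GMPs and the table holds 2 libraries per genotype, whose numbers here only name them. The 416b table lists only genes with a read in both libraries. The GMP kit was stranded, and the SMART-Seq kit used for 416b cells does not mark strand.

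The members and gene lists were chosen with earlier results of these data known. Named members were Zbtb16, Zbtb7a, 8 blood lineage regulators, 4 methyl-CpG or DNA methylation genes, the 5 highest and 5 lowest fold changes in GMPs, those past 1.5-fold in 416b cells, and the 5 highest per kb in a group. Other lists were BTB zinc finger genes of other symbols, corepressor and ligase partners, and cell type markers.

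For GMPs, log2(normalized count + 1) was tested with limma 3.58.1 (intensity trend, R 4.3.3) on genes reaching 10 in 2 or more libraries. P-values were adjusted by Benjamini-Hochberg, and the threshold was 0.08. Fold changes are on that scale and understate changes of low genes. Every GMP value was a whole multiple of the value of 1 read (0.964 to 1.03). In 1 column of each genotype that value lies so near 1 that, by the rule used, reads were not taken as recovered. By that choice no count test was run, though the values do not prevent one. The number it would call is not known here. For 416b cells, 1 read was worth 0.605 and 1.65 normalized counts. With a tolerance of 0.1 reads, 84.8% and 85.5% of values were whole, and 96.0% and 96.3% of low values. Ratios used a pseudocount of 1, a mean of at least 10 and 95% exact binomial (Clopper-Pearson) intervals, which cover counting error only. Levels per kb used the union of GENCODE M21 exons, with Python 3.11.15. The limma and interval steps were tested on simulated data. Results were recomputed without a filter, with a minimum mean of 100, and with a pseudocount of 0.1 or 10. Further alternatives were equal library totals, quantile normalization or upper quartile scaling, no intensity trend, a threshold of 0.05, the longest transcript, no division by length, and leaving out each GMP library. The chromatin samples were not analysed here.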

Additional observations from a re-analysis of the deposited data

How the results depend on the processing

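Zbtb16 was lower in Zbtb16lu/lu GMPs under every alternative run and higher in PLZF-Flag 416b cells under every alternative run. With quantile normalization 1 member, Zbtb17, was higher in Zbtb16lu/lu GMPs at an unadjusted p under 0.05, and without the intensity trend 1 member, Zbtb16, was lower. With equal library totals 3 were lower at that p, Zbtb11 beside Zbtb16 and Zbtb37. Without division by length Zbtb16 was the 2nd of 38 members in PLZF-Flag cells. By leaving out each GMP library in turn, 0 to 8 members passed an adjusted p of 0.08, 0 to 5 were higher and 1 to 5 lower at an unadjusted p under 0.05, and the log2 fold change of Zbtb16 ranged from -1.50 to -1.05. The counts of 6 and 8 members came without WT library 1 and without WT library 2, where 13.8% and 23.0% of all genes tested were also called, and 4685 of 20049 and 6371 of 20189 were at that unadjusted p. Without Zbtb16lu/lu library 1 or 2 these were 558 of 19977 and 539 of 19907. In those fits the spread rests on the 2 Zbtb16lu/lu libraries, which lie closer together than the WT libraries, and the lone WT library is assumed to vary like them. Of 95 values recomputed, 81 were counted as the same, by rules that differed with the kind of value. Counts had to stay within 1.5 times, and the GMP fold change of Zbtb16 had to keep its direction and side of the threshold. Its 416b ratio had to stay within its own counting interval. Medians had to move by less than the spread of the libraries or of the counting intervals. The WT spread of 0.22 is larger than the GMP median, so this rule is loose, but no median changed sign. No scaling moved the median of all genes by more than 0.1 on the log2 scale. No paired analysis was possible because the genotypes share only 1 header number, read here as a date, among their library columns. It is that of the libraries numbered 2, so no second pair can be formed. With 2 libraries per genotype the smallest exact permutation p is 0.333, so single values were not tested that way, and 1 library per condition allows no test in 416b cells. Zbtb7c and Zbtb8b were too low to test.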
